A study of Homo sapiens with 4 samples.

Results

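The sirtuin family, SIRT1 to SIRT7, was examined by gene symbol in RNA-seq of Reh-6-MPR cells, and all 7 genes were found among the 29833 genes listed. Reh is a long-established human line of B-cell acute lymphoblastic leukemia (B-ALL), and Reh-6-MPR is a 6-mercaptopurine (6-MP) resistant line that the study derived from it by stepwise exposure to the drug. The cells, all labelled wild type, were kept for 48 h with PBS as vehicle, with 4 mM histidine, with 1.0 μg/mL 6-MP, or with both agents at those concentrations. Each treatment had 1 library, 4 in all. The study sequenced these libraries to look for genes that go with the response to the combined treatment, and it then singled out SIRT5. The level of SIRT5 in the combined treatment is therefore not independent of that choice.

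Sirtuins are deacylases that spend NAD+, the oxidised form of nicotinamide adenine dinucleotide, each time they remove an acyl group from a lysine. SIRT1, SIRT6 and SIRT7 are found mainly in the nucleus, SIRT2 mainly in the cytoplasm, and SIRT3, SIRT4 and SIRT5 in mitochondria. SIRT3 is the main mitochondrial deacetylase, whereas SIRT5 has weak deacetylase activity and removes succinyl, malonyl and glutaryl groups. The mRNA level of a sirtuin says nothing on its own about the enzyme's activity, which was not measured in these libraries.

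The deposited unit was FPKM, which scales reads to the length of the gene and the size of the library, so that levels of different genes can be set side by side per length. The totals behind the values ranged from 12899122 reads for the combined treatment to 15486376 for histidine. The combined library, with the fewest reads, had 25443 genes above 0, against 23635 to 23978 in the others. The FPKM of a gene steps up by a fixed amount per read, and from these steps whole reads were recovered for 29831 of the 29833 genes, all 7 sirtuins included. The 95% intervals given below are exact binomial intervals on those reads, except where named otherwise. They cover counting error only and compare libraries, not treatments, since 1 library per treatment leaves no replicate check and no test between treatments. Of the B-cell precursor markers, 12 of 13 were listed, all above 1 FPKM in every library, with a summed level of 1729 to 1844 FPKM. VPREB1 was the marker not listed. Of the T cell markers 2 of 6 were listed, TRAC and CD8A, and their sum was 11.6 FPKM in vehicle, 12.2 in histidine, 12.3 in 6-MP and 32.3 in the combined treatment, nearly all of it TRAC. Of the monocyte and granulocyte markers 5 of 6 were listed, and 1 of these, MPO, was above 1 FPKM in all libraries. Their sum was 27.0 to 31.2 FPKM in the other libraries and 43.7 in the combined treatment. Summed erythroid markers were at 0.273 FPKM in vehicle, 0.191 in histidine, 0.159 in 6-MP and 0.492 in the combined treatment. Summed stromal markers were at 0.869, 1.05, 1.03 and 2.04 FPKM in the same order. TRAC, MPO and these sums were highest in the library where several sirtuins were also highest. Their values therefore belong beside the results on that library, and their part in those results was not tested.

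The regulatory sequence of the sirtuin genes is shown first for the 3 genes that the results turn on. RefSeq promoters on GRCh38.p14 were matched by symbol for 6 of the 7 sirtuins, with 9 windows of 250 bases upstream of an annotated start. SIRT7 was the gene without a match. The windows are written from 5′ to 3′ on the strand of the gene, and capitals mark the letters of 4 motifs searched on both strands, the GC box GGGCGG, the E-box CACGTG, an E2F element TTTCGCGC or TTTGGCGC, and the NRF1 core CGCATGCG. The letters of the NRF1 core were chosen after the SIRT5 window had been seen.
SIRT5 promoter, chr6:13574279-13574528, plus strand: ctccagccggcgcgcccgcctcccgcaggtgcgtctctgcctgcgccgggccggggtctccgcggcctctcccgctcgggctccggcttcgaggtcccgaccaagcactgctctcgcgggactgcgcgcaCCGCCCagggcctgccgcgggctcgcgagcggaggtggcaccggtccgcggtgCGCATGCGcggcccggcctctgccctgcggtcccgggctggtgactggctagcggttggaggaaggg
SIRT1 promoter, chr10:67884406-67884655, plus strand: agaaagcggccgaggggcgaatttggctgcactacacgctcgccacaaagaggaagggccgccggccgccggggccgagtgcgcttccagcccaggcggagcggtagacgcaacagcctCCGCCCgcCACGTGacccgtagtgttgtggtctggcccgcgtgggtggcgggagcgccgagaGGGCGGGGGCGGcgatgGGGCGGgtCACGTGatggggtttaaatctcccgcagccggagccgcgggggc
SIRT2 promoter, chr19:38899619-38899868, minus strand: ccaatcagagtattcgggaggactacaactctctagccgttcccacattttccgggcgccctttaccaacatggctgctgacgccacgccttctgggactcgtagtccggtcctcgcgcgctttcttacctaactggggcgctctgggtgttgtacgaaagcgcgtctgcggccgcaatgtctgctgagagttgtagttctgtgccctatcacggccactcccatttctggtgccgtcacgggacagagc

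The SIRT5 window held 1 GC box and 1 NRF1 core, and 78% of its bases were G or C. A second SIRT5 window, which belongs to a start further downstream, held the same NRF1 core and 2 GC boxes. The SIRT1 window held 4 GC boxes and 2 E-boxes. The SIRT2 window held none of the 4 motifs, and it spans the deposited start of NFKBIB, a gene on the opposite strand. The starts are those of RefSeq, and the SIRT5 windows and most of the SIRT2 window lie within the deposited spans of their genes. Among 35116 RefSeq promoter windows of this length, 42.6% held a GC box, 6.34% an E-box, 0.968% the E2F letters and 1.73% the NRF1 letters. Of the 9 sirtuin windows, 5 held a GC box, 1 an E-box, 0 the E2F letters and 3 the NRF1 letters, the third of these in a SIRT6 window. The 2 SIRT5 windows overlap and share 1 NRF1 core. By gene, 2 of the 6 sirtuins held the NRF1 letters, beside 2.14% of all genes. Because these letters were chosen after the SIRT5 window was seen, this count cannot be read against the share of all genes. A match is a description of the letters and not a measured binding site.

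In SIRT5, the mRNA was also the target of the RT-qPCR assay of the study, and its primers show which transcripts the assay can read.
SIRT5 forward primer: cgacctctccagattgtccca
SIRT5 reverse primer: ctggtttcgtgtggacgctg
Both primers were found in 6 of the 7 SIRT5 transcripts of GENCODE 29, with an amplicon of 81 bases in each, and no transcript of another gene held both.

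All 7 sirtuins were detected in each library and had a mean of at least 1 FPKM over the 4 libraries, the level required of the 12750 genes compared below. Summed over the family, the level was 45.9 FPKM in vehicle, 43.8 in histidine, 44.0 in 6-MP and 49.6 in the combined treatment. These sums hold on the deposited scaling. Median-ratio scaling, described with SIRT1 below, has a log2 divisor of 0.18 for the combined treatment and of -0.060 to -0.020 for the other libraries. On that scaling the combined sum is the lowest of the 4 libraries. The nuclear SIRT1 and SIRT6 led the family, with mean levels of 14.1 and 13.8 FPKM that exceeded those of 73.4% and 72.9% of the genes compared. SIRT7 at 5.28, SIRT3 at 4.37 and SIRT5 at 3.90 FPKM formed the middle, and SIRT4 at 2.27 and SIRT2 at 2.14 FPKM were the lowest. SIRT1 and SIRT6 each had levels more than 2 times that of SIRT7 in every library.

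**Figure D1:**
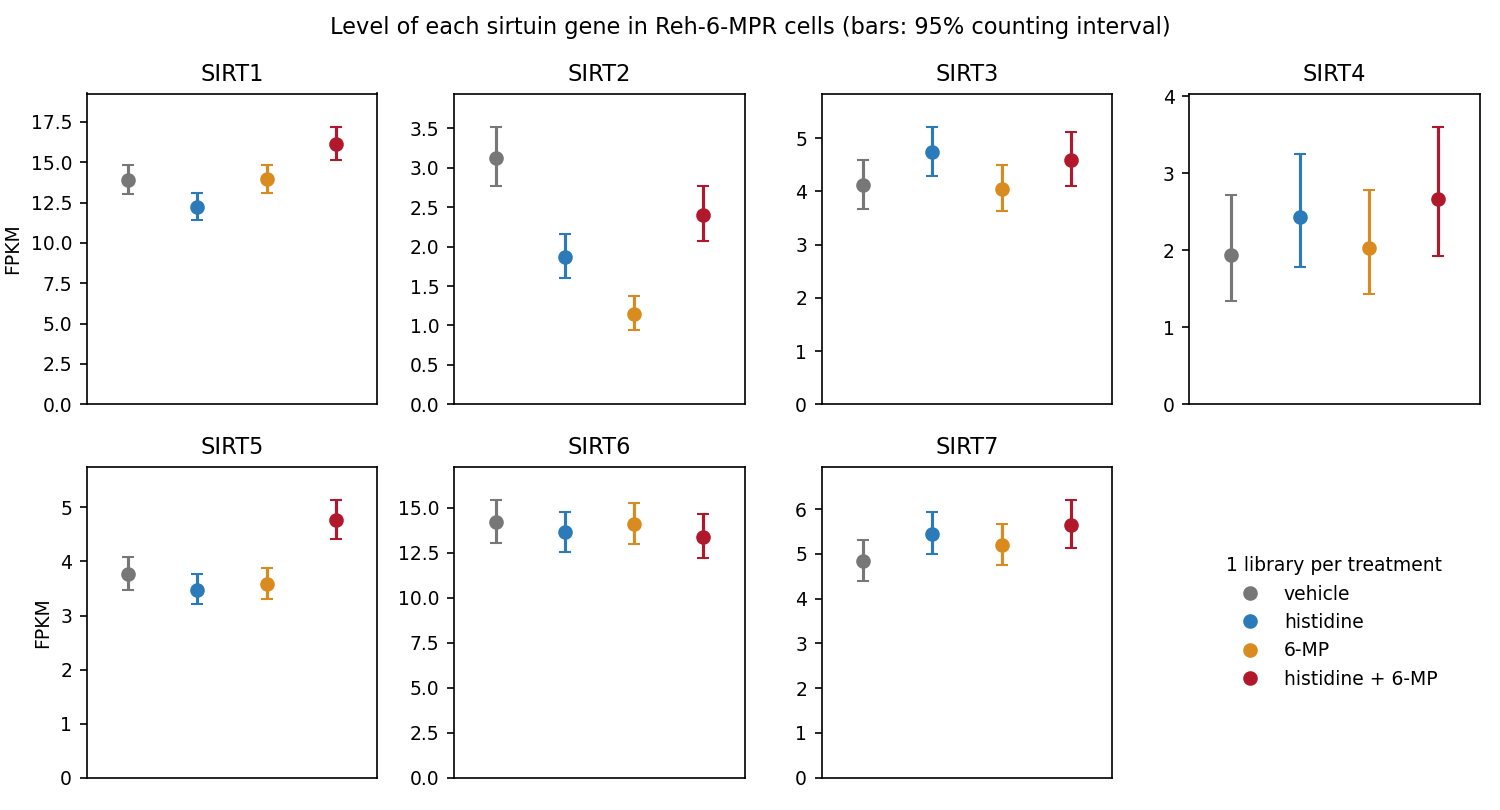
Level of each sirtuin gene in FPKM (vertical axis, separate linear scale from 0 for each gene) in the vehicle, histidine, 6-MP and combined libraries, 1 library each. Bars are 95% counting intervals. SIRT5 was highest in the combined treatment at 4.76 FPKM, SIRT6 stayed between 13.4 and 14.2, and SIRT2 was lowest in 6-MP at 1.14.

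The order of neighbouring members was settled in some libraries and not in others. In vehicle, histidine and 6-MP the intervals of SIRT6 and SIRT1 overlapped, and in the combined treatment SIRT1 at 16.1 FPKM lay above SIRT6 at 13.4 without overlap. SIRT5 stood next to SIRT3 in every library. SIRT3 was above SIRT5 in vehicle, histidine and 6-MP, without overlap in histidine only, and SIRT5 was above SIRT3 in the combined treatment, where the intervals overlapped. The place of SIRT5 in this order depends on the gene length behind the FPKM. The deposited values divide SIRT5 by 11295 bases, whereas its GENCODE 29 exons together span 6507 bases, a ratio of 1.74. With the GENCODE 29 lengths the mean level of SIRT5 was 6.77 FPKM, and it was the third of the family instead of the fifth, above SIRT7 at 5.27 and SIRT3 at 4.67. The length cancels in the read ratios given below, and not in the differences of log2(FPKM + 1).

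SIRT5 (ENSG00000124523, chr6:13574227-13615158 of hg38, plus strand) was the mitochondrial desuccinylase that the study followed. Its level was 3.77 FPKM in vehicle, from 609 reads, 3.48 in histidine from 608 reads, 3.59 in 6-MP from 622 reads, and 4.76 in the combined treatment from 694 reads. The intervals ran from 3.47 to 4.08 FPKM in vehicle, 3.21 to 3.76 in histidine, 3.31 to 3.88 in 6-MP, and 4.42 to 5.13 in the combined treatment. On the deposited scaling the combined library was thus the highest, with no overlap with the others, and the other 3 libraries overlapped each other. With the median-ratio divisors given above it remained the highest, and its interval overlapped those of vehicle and 6-MP. As a difference of log2(FPKM + 1), a scale that compresses changes at low levels, SIRT5 was higher in the combined treatment than in 6-MP by 0.33, than in histidine by 0.36 and than in vehicle by 0.27. Under median-ratio scaling over all genes above 0, described with SIRT1 below, the same differences were 0.14, 0.20 and 0.077. These 3 comparisons share the combined library and are not independent of each other. As a ratio of reads per library total, the excess over 6-MP was 1.33-fold, a log2 ratio of 0.41 with an interval from 0.25 to 0.57. Against histidine the log2 read ratio was 0.45 (0.30 to 0.61), and against vehicle it was 0.34 (0.18 to 0.50). The combined treatment also differed broadly from the other libraries. The median log2 fold change over the genes compared was 0.13 against vehicle, the same against 6-MP, and it was 0.11 against histidine. The SIRT5 value against 6-MP was above that of 69.1% of the genes, and 43.9% of the genes had a larger absolute change.

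Histidine or 6-MP alone was not accompanied by a higher SIRT5 level. The log2 fold change against vehicle was -0.091 for histidine and -0.055 for 6-MP, with read ratio intervals of -0.28 to 0.049 and -0.23 to 0.094. The vehicle library is shared by this pair of comparisons. The 4 libraries form a design of histidine and 6-MP, each present or absent, so that a departure from additivity can be given, as the log2 difference that goes with 6-MP when histidine is present minus that when it is absent. For SIRT5 the departure was 0.42 on the log2(FPKM + 1) scale, against a median of 0.11 over all genes compared, and higher than in 76.7% of them. Under median-ratio scaling it was 0.26. On the recovered reads it was 0.52, with a normal interval from 0.30 to 0.75.

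SIRT3 (ENSG00000142082, chr11:215030-236931, minus strand), the main mitochondrial deacetylase, was measured at 4.11 FPKM in vehicle, 4.73 in histidine, 4.05 in 6-MP and 4.59 in the combined treatment. SIRT3 was therefore higher in both libraries with histidine, though all 4 intervals overlapped and none of its 5 read ratios between libraries had an interval that excluded 0. SIRT4 (ENSG00000089163, chr12:120302316-120313249, plus strand), a mitochondrial lipoamidase and ADP-ribosyltransferase, was measured at 1.94, 2.43, 2.03 and 2.66 FPKM in the same order. These values rest on 34, 46, 38 and 42 reads, the fewest of the family, and the interval against 6-MP ran from -0.27 to 1.07 on the log2 scale. At this depth a difference of the size seen in SIRT5 was not detectable in SIRT4. On the deposited scaling, the summed level of the mitochondrial sirtuins was 9.82 FPKM in vehicle, 10.6 in histidine, 9.67 in 6-MP and 12.0 in the combined treatment. Each of the 3 genes was higher in the combined treatment than in vehicle and 6-MP, with an interval above 0 for SIRT5 alone, and under median-ratio scaling SIRT3 was lower than in both, by -0.068 and -0.044.

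SIRT1 (ENSG00000096717, chr10:67884656-67918390, plus strand), the nuclear deacetylase known for acting on p53 and FOXO factors, was measured at 13.9 FPKM in vehicle, 12.2 in histidine, 14.0 in 6-MP and 16.1 in the combined treatment. It was the other sirtuin that lay above each of the other libraries with all 3 intervals above 0. The log2 read ratio was 0.40 (0.27 to 0.54) when set beside histidine, 0.21 (0.079 to 0.34) beside 6-MP and 0.21 (0.081 to 0.35) beside vehicle. In histidine alone SIRT1 was below vehicle, by a log2 read ratio of -0.19 (-0.32 to -0.051). A pattern of this kind, above each of the other libraries with intervals above 0, was present in 34.3% of all genes compared, so that 2 of 7 sirtuins is near the share of all genes. The log2(FPKM + 1) difference of SIRT1 was 0.20 against 6-MP and against vehicle, and under median-ratio scaling over all genes above 0, which moved the median of the genes compared from 0.13 to -0.065 against 6-MP, both differences turned negative, to -0.024 and -0.028. Against histidine the SIRT1 difference was 0.37, and it was 0.18 under median-ratio scaling.

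SIRT6 (ENSG00000077463, chr19:4174109-4182566, minus strand), a chromatin deacylase of DNA repair and glycolytic genes, was the steadiest of the family. Its level was 14.2 FPKM in vehicle, 13.6 in histidine, 14.1 in 6-MP and 13.4 in the combined treatment, a ratio of highest to lowest of 1.06, and all 4 intervals overlapped. Under median-ratio scaling it was less steady, with a log2(FPKM + 1) difference of -0.29 from 6-MP in place of -0.070, and relative to ACTB or GAPDH that difference was above 0. SIRT6 was the sirtuin lowest in the combined treatment, as were 28.8% of all genes compared. Under median-ratio scaling SIRT3, SIRT6 and SIRT7 were lowest there, as were 46.6% of all genes. Its share of the summed sirtuin level was 30.9% in vehicle and 27.0% in the combined treatment. SIRT7 (ENSG00000187531, chr17:81911939-81921323, minus strand), a deacylase tied to ribosomal RNA synthesis, was measured at 4.84 FPKM in vehicle, 5.45 in histidine, 5.20 in 6-MP and 5.65 in the combined treatment. Its log2 read ratio was 0.22 for the combined treatment against vehicle (0.028 to 0.42) and 0.12 against 6-MP (-0.068 to 0.31). On the log2(FPKM + 1) scale the difference was 0.19 from vehicle, 0.10 from 6-MP and 0.043 from histidine. Under median-ratio scaling these differences turned to -0.017, -0.097 and -0.13. The deposited span of SIRT7 overlaps that of MAFG, a small MAF transcription factor gene on the same strand, over 3054 bases. MAFG was also highest in the combined treatment, at 13.7 FPKM against 9.93 in vehicle, and how reads in the shared stretch were assigned is not given in the sources used here.

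SIRT2 (ENSG00000068903, chr19:38878555-38899862, minus strand), the cytoplasmic deacetylase known for acting on tubulin, varied most. Its level was 3.13 FPKM in vehicle from 279 reads, 1.87 in histidine from 180 reads, 1.14 in 6-MP from 109 reads and 2.40 in the combined treatment from 193 reads. Vehicle was the highest library and 6-MP the lowest, with a ratio of 2.74, and histidine and the combined treatment lay between, their intervals overlapping narrowly. Against vehicle the log2(FPKM + 1) difference of 6-MP was -0.95, and 1.33% of all genes compared had a larger absolute change. The log2 read ratio was -1.46, with an interval from -1.79 to -1.13. In histidine the log2(FPKM + 1) difference from vehicle was -0.53 and the log2 read ratio -0.75 (-1.02 to -0.47). SIRT2 was thus lower with each agent alone, and the library with both agents was 2.11-fold above 6-MP, a log2 read ratio of 1.07 (0.73 to 1.43). The combined treatment remained below vehicle, by a log2 read ratio of -0.38 (-0.65 to -0.11). It was above histidine, by 0.36 (0.064 to 0.67). The departure from additivity of SIRT2 was 1.20 on the log2(FPKM + 1) scale, above 96.9% of the genes compared, and 1.82 (1.39 to 2.25) on the reads.

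The 5′ end of SIRT2 overlaps the deposited span of NFKBIB, which encodes an inhibitor of NF-κB, by 163 bases on the opposite strand. NFKBIB was measured at 2.61 FPKM in vehicle, 2.95 in histidine, 2.27 in 6-MP and 0.634 in the combined treatment, from 87, 106, 81 and 19 reads. Its order over the libraries thus differs from that of SIRT2, and NFKBIB was lowest where SIRT2 was 2.11-fold above 6-MP. The kit was stranded, and the strand setting of the counting is not given in the sources used here. SIRT3 overlaps RIC8A by 84 bases on the opposite strand, and RIC8A varied between 17.1 and 18.2 FPKM. In bulk RNA of this kind, fewer cells with a transcript and less of it per cell cannot be told apart.

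**Figure D2:**
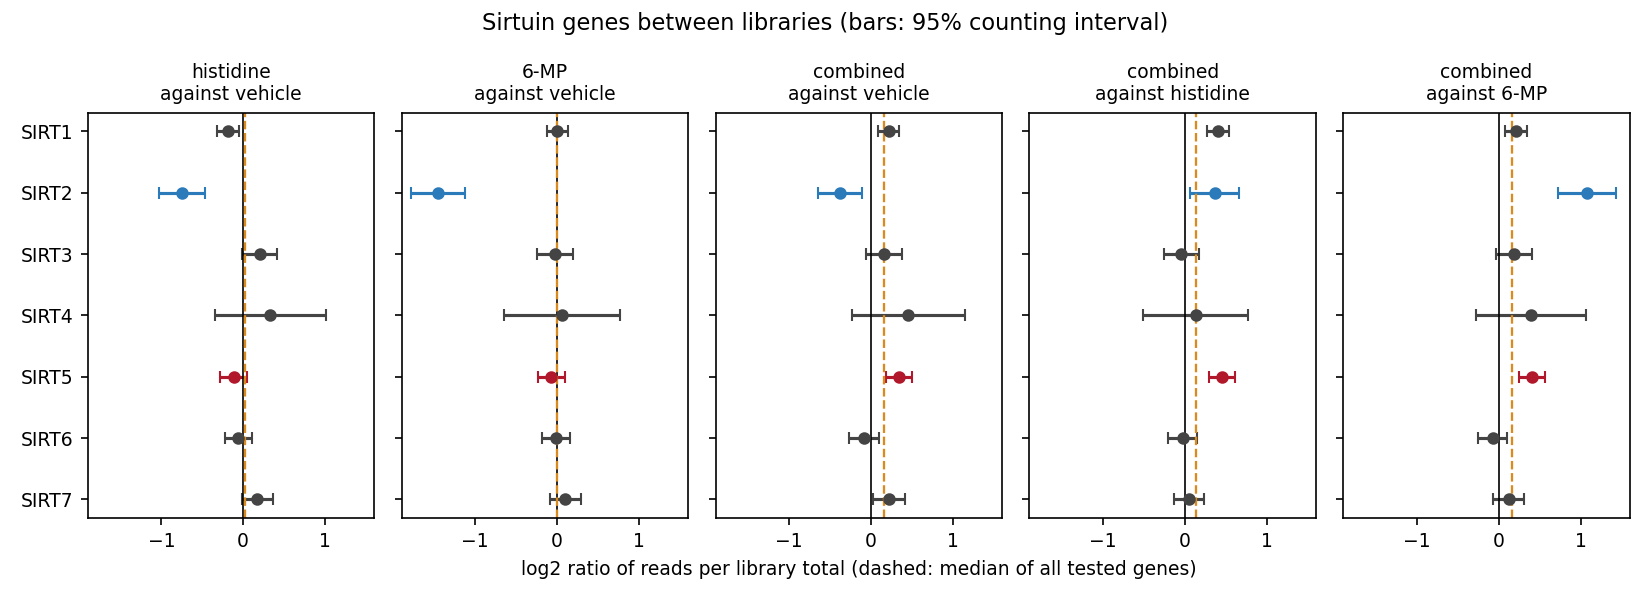
Log2 ratio of reads per library total for each sirtuin (rows) in 5 comparisons between libraries (panels), with 95% counting intervals and a dashed line at the median of all genes compared. SIRT2 in 6-MP against vehicle is the farthest from 0, at -1.46, and SIRT5 lies above the dashed line in each of the 3 comparisons of the combined treatment.

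Counted over the family, 0 of the 7 sirtuins reached the fold criterion of the study, an absolute log2 difference of 1, in each of the 5 comparisons. The share of all genes compared that passed it was 1.33% for histidine against vehicle, 1.18% for 6-MP against vehicle, 6.53% for the combined treatment against vehicle, 5.55% against histidine and 6.02% against 6-MP. The count for 6-MP against vehicle and for the combined treatment against 6-MP was 1 on the recovered reads without a pseudocount, SIRT2 in both. At an absolute log2 fold change of 0.5, SIRT2 was the 1 sirtuin that passed in histidine against vehicle, 6-MP against vehicle and the combined treatment against 6-MP, where 4.86%, 4.72% and 26.2% of all genes did. For the combined treatment against vehicle and against histidine 0 passed, where 27.1% and 25.4% of all genes did.

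Intervals that exclude 0 were frequent among all genes. For the combined treatment they were found in 4 sirtuins when set beside vehicle, 3 beside histidine and 3 beside 6-MP, where 63.6%, 63.3% and 63.5% of all genes had one. Intervals above 0 were found in 3 sirtuins in each of these comparisons, and in 42.7%, 41.2% and 42.2% of all genes. In histidine against vehicle the interval excluded 0 for SIRT1 and SIRT2 and in 6-MP against vehicle for SIRT2, below 0 in each case, and 21.7% and 18% of all genes had an interval that excluded 0 there. The median of the 7 log2 fold changes was 0.19 for the combined treatment against vehicle, 0.095 against histidine and 0.20 against 6-MP, beside medians of 0.13, 0.11 and 0.13 over all genes. The combined treatment was the highest library for 4 sirtuins, SIRT1, SIRT4, SIRT5 and SIRT7, and for 53.8% of all genes. Under median-ratio scaling it was the highest for SIRT5 alone among the sirtuins, and for 34.4% of all genes. The family as a whole was therefore not far from the other genes in these libraries. A departure from additivity of at least 1 in absolute log2 was found for SIRT2 alone, and for 6.76% of all genes, and one whose interval excluded 0 for SIRT1, SIRT2 and SIRT5, and for 54.6% of all genes.

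SIRT5 was set against each relative by dividing its read ratio by that of the relative, which cancels the scaling of the libraries. For the combined treatment against 6-MP, the SIRT5 ratio exceeded that of SIRT6 by a log2 value of 0.48 (0.24 to 0.72) and that of SIRT7 by 0.29 (0.040 to 0.53). It lay below that of SIRT2, by -0.67 (-1.05 to -0.28). Against SIRT1 the value was 0.20 (-0.0076 to 0.40), against SIRT3 0.23 (-0.048 to 0.50) and against SIRT4 0.014 (-0.68 to 0.70), so that SIRT5 was not separated from these 3 by counting error. The intervals leave room for a difference from SIRT1 of up to 0.40 and from SIRT3 of up to 0.50, and in SIRT4 the few reads bound little.

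For the combined treatment against histidine, SIRT5 exceeded SIRT3 by 0.50 (0.23 to 0.77), SIRT6 by 0.48 (0.24 to 0.72) and SIRT7 by 0.40 (0.16 to 0.65). It was not separated from SIRT1 at 0.054 (-0.16 to 0.26), SIRT2 at 0.090 (-0.25 to 0.43) or SIRT4 at 0.32 (-0.34 to 0.98). Against vehicle, SIRT5 exceeded SIRT2 by 0.72 (0.40 to 1.04) and SIRT6 by 0.42 (0.18 to 0.67), and the values for SIRT1, SIRT3, SIRT4 and SIRT7 lay between -0.12 and 0.18 with intervals that included 0. SIRT6 was the relative that SIRT5 exceeded in all 3 comparisons, and SIRT1 was the relative with enough reads to be bounded closely from which it was separated in none. In histidine against vehicle SIRT5 lay below SIRT3 by -0.32 (-0.59 to -0.047) and below SIRT7 by -0.29 (-0.54 to -0.037), and it exceeded SIRT2 by 0.63 (0.31 to 0.95). In 6-MP against vehicle it was separated from SIRT2 only, at 1.39 (1.02 to 1.76). In the same comparison SIRT2 lay below each of the 6 relatives, by -1.39 to -1.56. The share of SIRT5 in the summed sirtuin level was 8.21% in vehicle, 7.93% in histidine, 8.15% in 6-MP and 9.61% in the combined treatment, and with the GENCODE 29 lengths it was 13.4%, 13.0%, 13.3% and 15.5%.

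**Figure D3:**
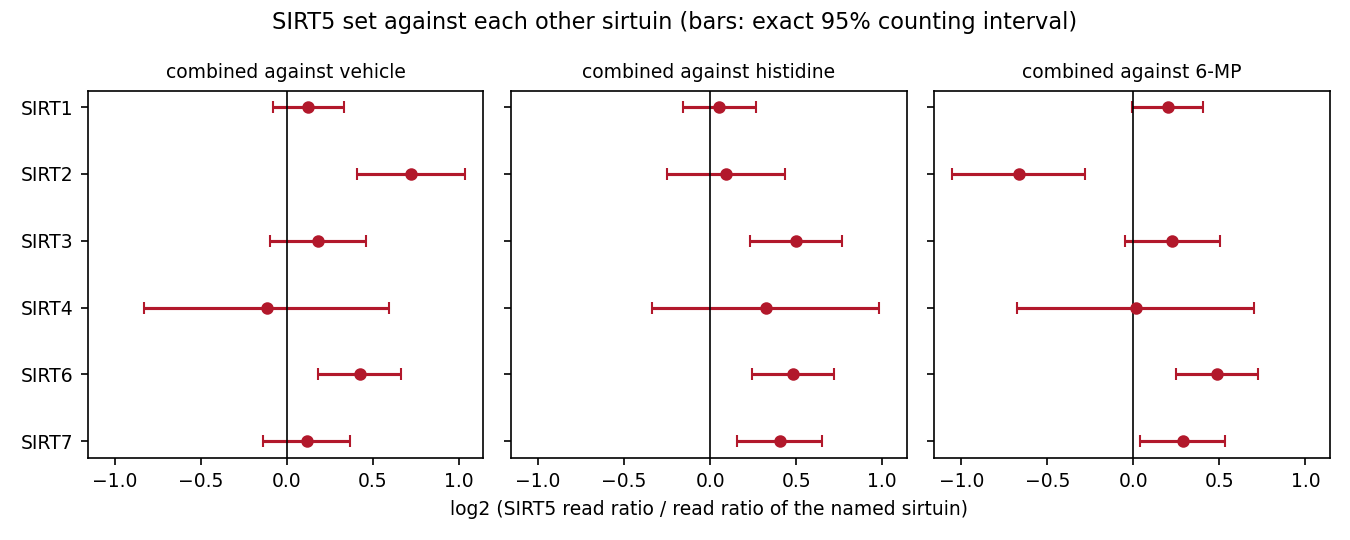
Log2 of the SIRT5 read ratio over the read ratio of each other sirtuin (rows) for the combined treatment against vehicle, histidine and 6-MP (panels), with exact 95% counting intervals. SIRT5 exceeded SIRT6 in all 3 panels, by 0.42 to 0.48, and lay below SIRT2 against 6-MP, at -0.67.

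In RT-qPCR a level is read relative to a reference gene. Each sirtuin was therefore set against 15 genes in common use as references. Among them is ACTB, as the RT-qPCR assays of the study were scaled to β-actin. Between 6-MP and the combined treatment the log2(FPKM + 1) difference of ACTB, the cytoplasmic actin, was -1.43, from 916 to 339.6 FPKM, and that of GAPDH, the glycolytic dehydrogenase, was -0.18. SIRT5 was higher relative to 13 of the 15 genes, with a median of 0.50. The range ran from -0.43 relative to GUSB, the lysosomal β-glucuronidase, to 1.76 relative to ACTB. Relative to GAPDH it was 0.50. SIRT2 was higher relative to 14 of the references, SIRT4 to 12, SIRT1 to 11, SIRT3 to 10, SIRT7 to 9 and SIRT6 to 8. SDHA, among these references, was below 1 FPKM, at 0.699 in 6-MP and 0.920 in the combined treatment. Its difference was 0.18, and its log2 read ratio was 0.40. On reads SIRT1, at 0.21, and SIRT4, at 0.39, lay below SDHA, and SIRT5, at 0.41, lay above it. The direction for SIRT5 thus depended on the reference for GUSB and HPRT1 only, and the size depended on it throughout. ACTB and GAPDH have processed pseudogenes that share reads with them, and the rule for shared reads is not given in the sources used here.

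**Figure D4:**
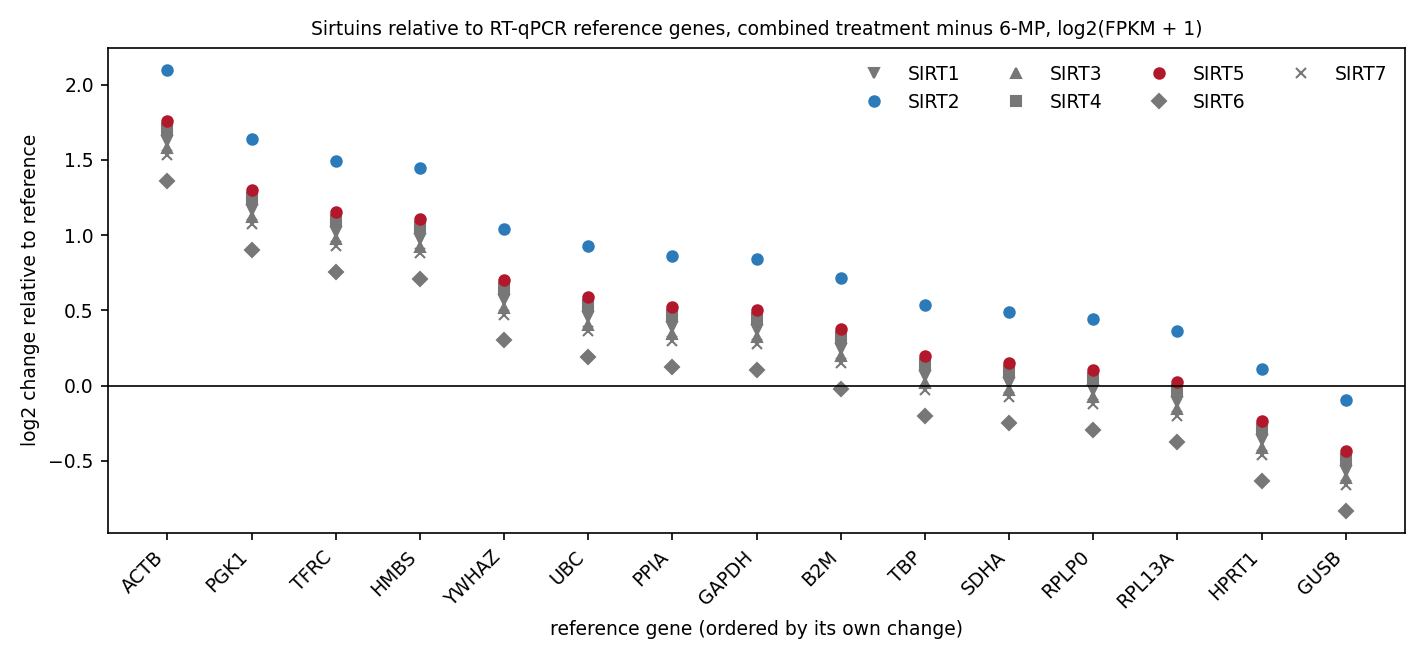
Log2 difference of log2(FPKM + 1), combined treatment minus 6-MP, of each sirtuin relative to each of 15 reference genes (horizontal axis, ordered by the reference's own difference). SIRT5 runs from 1.76 relative to ACTB to -0.43 relative to GUSB, and all 7 sirtuins lie above 0 relative to ACTB.

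The genes around the sirtuins were examined in 9 lists. Of the 114 distinct list genes with a mean of at least 1 FPKM, 2 passed an absolute log2 fold change of 1 in the combined treatment against vehicle, 2 against histidine and 1 against 6-MP. For histidine and for 6-MP against vehicle 0 passed. Of all genes 6.53%, 5.55% and 6.02% passed in the comparisons of the combined treatment, and 1.33% and 1.18% in those of histidine and 6-MP alone. Under median-ratio scaling 5 list genes passed against vehicle and 2 against 6-MP. The 2 genes were CDC20, the mitotic activator of the anaphase-promoting complex, and PPARGC1B, a coactivator of mitochondrial genes. All values in the next paragraphs are log2(FPKM + 1) differences of the combined treatment against 6-MP unless another comparison is named, and they stand beside a median of 0.13 over all genes, 63.1% of which were above 0.

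NAD+ is the shared co-substrate of the family, and of the 12 NAD+ synthesis and salvage genes compared, 9 were above 0, with a median of 0.071. NAMPT, the rate-limiting enzyme of salvage from nicotinamide, was the lowest, at 2.61, 2.51, 2.72 and 2.25 FPKM in vehicle, histidine, 6-MP and the combined treatment and a difference of -0.19. QPRT, which makes nicotinic acid mononucleotide from quinolinate in the de novo route, was the highest, at 55.8, 53.7, 59.6 and 94.3 FPKM and a difference of 0.65. SLC25A51, the mitochondrial NAD+ carrier, was at 5.22, 5.78, 5.41 and 6.48 FPKM, a difference of 0.22. The synthesis genes thus lay on both sides of 0. Among 9 other NAD+ consumers the median was 0.23 and 8 were above 0. PARP1, the main poly(ADP-ribose) polymerase of DNA damage, was the exception, at 53.7 FPKM in 6-MP and 44.1 in the combined treatment, a difference of -0.28. PARP10, a mono-ADP-ribosyltransferase, was the highest at 0.83, with 12.8, 13.9, 12.8 and 23.6 FPKM in the 4 libraries.

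Of 11 regulators of sirtuins compared, 5 were above 0 and the median was -0.069. CCAR2, an inhibitor of SIRT1, was at 26.3, 26.8, 26.1 and 24.2 FPKM, a difference of -0.10. RPS19BP1, which encodes an activator of SIRT1, was at 20.3, 18.5, 18.4 and 19.3 FPKM, a difference of 0.07. Both thus stayed close to their level in the other libraries. PPARGC1B was the lowest, at 4.97, 5.34, 3.95 and 1.79 FPKM, with a difference of -0.83 from 6-MP, -1.10 from vehicle and -1.19 from histidine. NQO1, an NADH-oxidising quinone reductase, was the highest at 0.42, with 2.54 FPKM in 6-MP and 3.73 in the combined treatment.

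The genes that make and use the acyl-CoA donors of the SIRT5 marks had a median of -0.12 over 15 genes, 6 of them above 0. GCDH, the glutaryl-CoA dehydrogenase, was the lowest at -0.74, with 15.7 FPKM in 6-MP and 8.99 in the combined treatment, and SUGCT, which makes glutaryl-CoA, was the highest at 0.48, with 0.783 and 1.48 FPKM. SUGCT rests on 34 reads in 6-MP and 54 in the combined treatment, and it reached the required mean of 1 FPKM through the combined library, where it was highest. For 16 proteins described as SIRT5 substrates the median was -0.086 and 7 were above 0. HINT1, the nucleotide-binding protein that the study followed as a SIRT5 substrate, was at 24.1, 24.7, 25.2 and 30.0 FPKM, a difference of 0.24. This is an mRNA value on the deposited scaling. The study reported more HINT1 protein in the combined treatment and no change in HINT1 mRNA. SDHB, a subunit of succinate dehydrogenase, was the lowest at -0.70, and SLC25A5, an adenine nucleotide translocator, the highest at 0.46. HINT1 and SLC25A5 have pseudogene copies, and their values are uncertain to that degree.

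For the genes tied to the relatives the medians were also below 0. Of 15 genes of SIRT3 or SIRT4 substrates 6 were above 0, with a median of -0.086. DLAT, the acetyltransferase of pyruvate dehydrogenase on which SIRT4 acts, was the lowest at -0.69, with 15.0 FPKM in 6-MP and 8.92 in the combined treatment, and ACSS1, the mitochondrial acetyl-CoA synthetase, the highest at 0.51. Of 17 genes of SIRT1 or SIRT2 substrates 6 were above 0, with a median of -0.17. CDC20 was the lowest, at 156.6, 148, 143.9 and 35.3 FPKM and a difference of -2.00, and FOXO1, a forkhead factor that SIRT1 deacetylates, the highest at 0.44. Of 15 genes tied to SIRT6 or SIRT7 3 were above 0, with a median of -0.18. POLR1B, a subunit of RNA polymerase I, was the lowest at -0.87 and HIF1A, the hypoxia factor, the highest at 0.31. The median of the sirtuins was 0.20 in this comparison. Against histidine the sirtuin median of 0.095 was below the 0.11 of all genes.

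The classical zinc-dependent deacetylases, which remove the same acetyl mark without NAD+, had 8 of 11 members at a mean of at least 1 FPKM. Their median was 0.16, with 5 above 0, and 0 reached an absolute log2 difference of 0.5 in the 5 comparisons, as 4.72% to 27.1% of all genes did. HDAC2 was the lowest at -0.42, with 20.2 FPKM in 6-MP and 14.8 in the combined treatment, and HDAC5 the highest at 0.42, with 23.2 and 31.4 FPKM. HDAC11, named after its values were seen, fell just under the required mean level, with 0.748, 0.555, 0.797 and 1.84 FPKM in the 4 libraries, and its difference of 0.66 was close to the 0.67 of SIRT2.

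**Figure D5:**
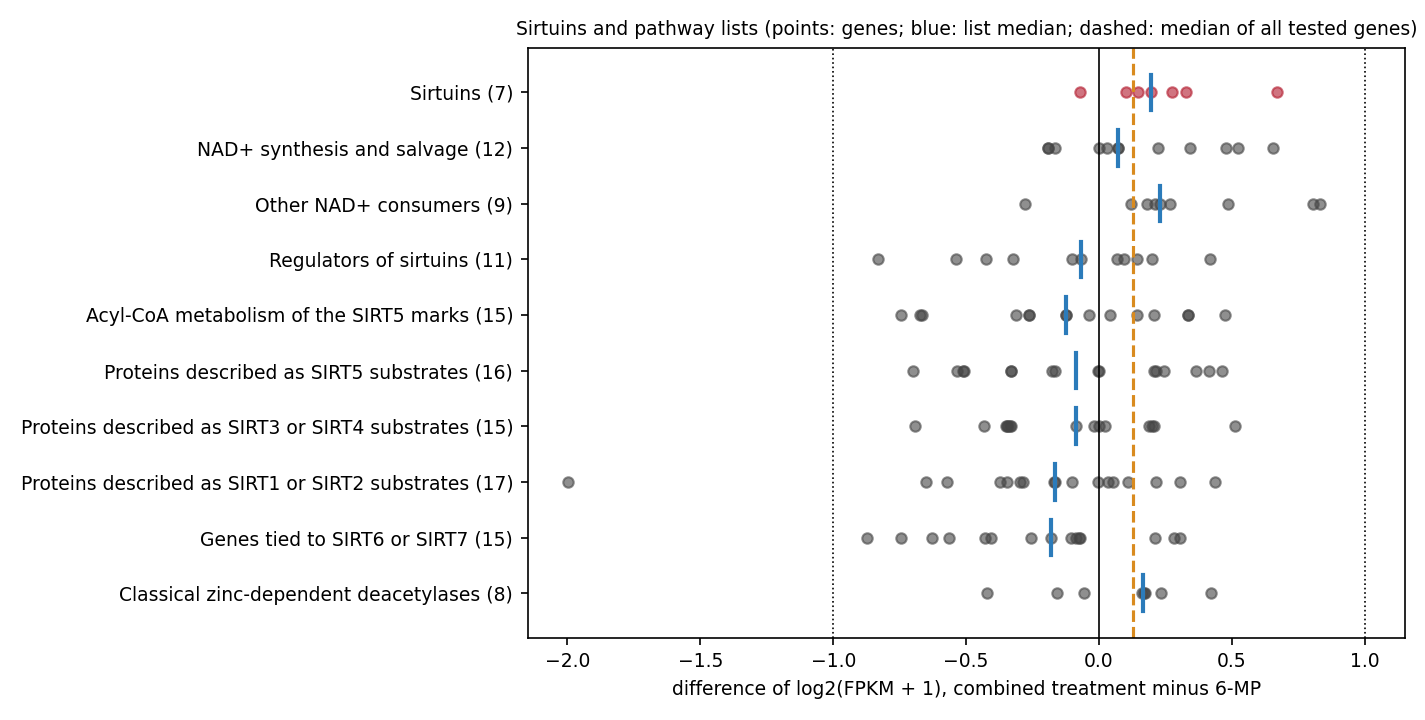
Log2(FPKM + 1) difference of the combined treatment minus 6-MP (horizontal axis) for the sirtuins and 9 gene lists (rows). Points are genes, blue marks are list medians and the dashed line is the median of all genes compared, 0.13. CDC20, at -2.00, is the point farthest from 0, and the sirtuin points lie between -0.070 and 0.67.

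The genes whose pattern was most like that of SIRT5 were sought among 9997 protein-coding genes by the Euclidean distance over the 3 log2 fold changes of the treatments against vehicle, so over 4 libraries that share the vehicle. ST3GAL4, a sialyltransferase, was the nearest at a distance of 0.0096, with 2.64, 2.42, 2.50 and 3.37 FPKM in vehicle, histidine, 6-MP and the combined treatment. EMC10, a subunit of the endoplasmic reticulum membrane complex, followed at 0.015 and TMCC1, a membrane protein of the endoplasmic reticulum, at 0.016. The pattern of SIRT5 was shared by many genes, with 283 within a distance of 0.1 and 1718 within 0.2. For SIRT2, a search added after its values were seen, 0 genes were within 0.1 and 1 was within 0.2. The nearest was KIAA1143 at 0.18, followed by CDR2 at 0.25. KIAA1143 was at 1.93 FPKM in vehicle, 0.867 in histidine, 0.475 in 6-MP and 1.22 in the combined treatment, the same order of libraries as SIRT2. A like order is what the search selects for. KIAA1143 reached the required mean of 1 FPKM through vehicle, where it was highest.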

How the data were processed

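The RNA-seq data hold 4 libraries of Reh-6-MPR cells, 1 per treatment, with treatments taken from the sample labels. The authors deposited FPKM values per gene, and the submitters' processing notes name Trimmomatic, HISAT2, Cufflinks, HTSeq and the builds hg38 and GRCh38. Versions, the rule for shared reads and the strand setting are not given in the sources used here. FPKM falls for all other genes where a few abundant genes take more reads, which bears on the differences between libraries given. It cancels where the read ratio of a sirtuin is divided by that of a relative.

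The sirtuins were found by symbol. Reads were recovered from the steps of the FPKM values. For 620 genes the shortest fitting length was multiplied to come near the GENCODE 29 length, no sirtuin among them, and the recovered reads summed to 100.433% to 100.45% of the library totals. Differences were taken on log2(FPKM + 1) for the 12750 genes whose FPKM averaged at least 1, and counted at an absolute log2 fold change of 1. Read ratios have exact conditional binomial 95% intervals, ratios of read ratios exact conditional intervals of the odds ratio, and departures from additivity normal intervals. The authors' DESeq2 test was left out because no treatment has a replicate.

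The members, the gene lists and the tests were chosen with earlier results of these data known. The genes named are the 7 sirtuins, list genes past the fold criterion in the combined treatment, the highest and lowest of each list against 6-MP, CCAR2, RPS19BP1, NAMPT, SLC25A51, HINT1, ACTB, GAPDH and the 3 protein-coding genes most like SIRT5. Overlapping genes, HPRT1, GUSB, HDAC11, TRAC, MPO and the genes most like SIRT2 were named after their values were seen, and 1 further gene is not reported here. Alternatives were a pseudocount of 0.1, no filter or a mean FPKM of at least 5, median-ratio and TPM scaling, ACTB or GAPDH as reference, recovered reads, and a fold criterion of 0.5. Median-ratio scaling over the compared genes, the read ratio of single genes without a pseudocount and GENCODE 29 lengths were added after seeing the data. Scripts were tested on simulated data. Computation used numpy 2.4.6 and scipy 1.17.1 in Python 3.11.15, with pandas 2.3.3 for tables and matplotlib 3.10.9 for figures.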

Additional observations from a re-analysis of the deposited data

Results flagged for a closer look

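SIRT1, SIRT2 and SIRT5 were flagged because an agent went with a difference of one sign alone and of the other sign beside the second agent. Such opposite signs were common among all genes, as given below, so they do not set these sirtuins apart. Each value is a log2(FPKM + 1) difference between 2 single libraries, so that the difference between the directions was not tested. For SIRT2, adding 6-MP gave -0.95 without histidine and 0.25 with it, and adding histidine gave -0.53 without 6-MP and 0.67 with it. For SIRT5, adding 6-MP gave -0.055 without histidine and 0.36 with it, and adding histidine gave -0.091 without 6-MP and 0.33 with it. The counting intervals of the SIRT5 values without the other agent included 0. For SIRT1, adding histidine gave -0.17 without 6-MP and 0.20 with it, and under median-ratio scaling both values were below 0, at -0.21 and -0.024. Opposite signs of this kind were found for 6-MP in 47.1% of all genes compared and for histidine in 44.8%, beside 2 and 3 of the 7 sirtuins. Under median-ratio scaling they were found for 6-MP in 47.2% of all genes and in 5 sirtuins, SIRT1, SIRT2, SIRT4, SIRT5 and SIRT7, and for histidine in 43% of all genes and in 4 sirtuins, SIRT2, SIRT3, SIRT5 and SIRT7.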

How the results depend on the processing

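No paired analysis was possible because a treatment consists of 1 library only, and for the same reason no library could be left out in turn. The direction of SIRT5 in the 3 comparisons of the combined treatment was the same under every scaling, reference and pseudocount listed in the methods, with exceptions relative to GUSB and HPRT1 given above. Its size was not, and with the median-ratio divisors the counting interval of the read ratio against vehicle includes 0. With median-ratio scaling over all genes above 0, SIRT5 was 0.077 above vehicle, 0.20 above histidine and 0.14 above 6-MP. With the scaling over the compared genes the values were 0.15, 0.26 and 0.21. With ACTB as reference they were 1.79, 1.83 and 1.76, and the departure from additivity was 1.79. With GAPDH as reference the value against 6-MP was 0.50. Among the values whose counting interval excluded 0, the sign changed for SIRT1 against vehicle, -0.028, and against 6-MP, -0.024, and for SIRT7 against vehicle, -0.017, under median-ratio scaling, and for SIRT2 against vehicle with ACTB as reference, 1.24. These shifts follow from the scaling itself, which applies 1 factor to every gene of a library. Counted over all 42 sirtuin differences and departures, these values included, the sign changed for 10 under median-ratio scaling, 4 with the scaling over the compared genes, 12 with ACTB and 8 with GAPDH as reference, 1 under TPM scaling and 0 with a pseudocount of 0.1 or the read ratio.

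The number of sirtuins past the fold criterion, 0 in each comparison, became 1 at a criterion of 0.5 for histidine against vehicle, 6-MP against vehicle and the combined treatment against 6-MP, SIRT2 in each. It became 1 for 6-MP against vehicle with a pseudocount of 0.1, TPM scaling, GAPDH as reference or recovered reads, and 1 for the combined treatment against 6-MP with a pseudocount of 0.1 or recovered reads. With ACTB as reference it became 7 in each comparison of the combined treatment and 7 for the departure from additivity, where a mean FPKM of at least 5 left 0 because SIRT2 was no longer compared. The list genes past the criterion against vehicle numbered 5 with median-ratio scaling in place of 2, and against 6-MP 2 with median-ratio scaling or a pseudocount of 0.1 in place of 1. Depth limits SIRT4 most, with at most 46 reads per library.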
